A study of Bos taurus with 2 samples.

Results

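The imprinted miRNA region of bovine chromosome 21 was described in the mammary gland (MG) of a lactating and a non-lactating Holstein cow. Members were all miRNAs of the 3 deposited tables whose pre-miRNA lay on chr21:65800000-66100000 of the genome BTA 4.0, which gave 66 of the 883 unique miRNAs with a value in both libraries. Of these, 35 were known bovine miRNAs, 1 was a miRNA conserved in other mammals (prefix PC) and 30 were candidates that the authors predicted from the genome (prefix CN). The lactation library came from 1 cow aged 6 years and 2 months in milk, and the non-lactation library from 1 cow aged 4 years that was neither lactating nor pregnant. The cows therefore also differed in age. Small RNA was sequenced once per cow, so no difference below has a replicate check. The tables hold no allele information, so imprinting itself was not measured here.

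The region is the DLK1-DIO3 domain, one of the largest groups of miRNA genes in mammals. From the maternal chromosome, long non-coding RNAs such as MEG3 and MEG8 and the miRNAs are transcribed on one strand, whereas the protein-coding genes DLK1, RTL1 and DIO3 are transcribed from the paternal chromosome. Several of the miRNAs, mir-127, mir-136, mir-432 and mir-433 among them, lie antisense to RTL1, a gene derived from a retrotransposon. The miRNAs are known mainly from embryo, placenta and brain. A pre-miRNA hairpin can release a mature miRNA from its 5p arm and another from its 3p arm, and bases 2 to 8 of the mature miRNA, the seed, lead the choice of targets. Pre-miRNAs of the mir-376 family are known substrates of RNA editing, in which an adenosine is converted and then read as G.

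The most abundant sequences of the members that carried the results are shown as the tables list them, from 5′ to 3′, with the seed in capitals. The first set holds both arms of the most abundant hairpin (mir-127-3p and CN-346-5p), called members outside the mir-376 stretch, and mir-369-5p as the other arm of mir-369-3p.
mir-127-3p: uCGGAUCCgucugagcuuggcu
CN-346-5p: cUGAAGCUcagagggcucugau
mir-136-5p: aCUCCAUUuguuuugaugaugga
mir-411-5p: aUAGUAGAccguauagcguac
CN-354-3p: aGAUAUUGcacgguugaucucu
mir-487a-3p: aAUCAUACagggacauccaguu
mir-485-5p: aGAGGCUGgccgugaugaauucg
CN-366-5p: aGAGGUCUuccauggugcauucg
mir-369-3p: aAUAAUACaugguugaucuuu
mir-369-5p: aGAUCGACcguguuauauucg

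The second set holds 5 members of the mir-376 stretch. Each differs from at least 1 other by only 1 or 2 bases, while the reads of their most abundant sequences moved in different directions.
CN-355-3p: aACAUAGAggaaaauccacauu
CN-356-3p: aACAUGGAggaaaauccacauu
CN-357-3p: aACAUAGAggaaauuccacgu
mir-376d-3p: aUCAUAGAggaaaauccacau
mir-376b-3p: aUCAUAGAggaaaauccaugu

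The third set holds members whose listed sequences share a seed although they are listed at different hairpins.
CN-348-3p: uAUGUAACaugguccacuaac
CN-349-3p: uAUGUAACacgguccacuaac
CN-351-3p: uAUGUAACaugguccacuaau
mir-487a-3p: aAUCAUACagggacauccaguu
CN-365-3p: aAUCAUACacgguucaccuauu
CN-364-3p: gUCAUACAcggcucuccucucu
CN-366-3p: aUCAUACAugguugaccuuuuu

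All 66 members were listed on the plus strand. They fell into 2 clusters when pre-miRNAs with gaps of at most 10 kb were joined. The first cluster, chr21:65852824-65870198, ran from mir-493 to mir-136 over 17.4 kb and held 9 members of 6 hairpin loci. A gap of 131 kb separated it from the second cluster, chr21:66000737-66042815, which ran from mir-379 to mir-410 over 42.1 kb and held 57 members of 37 loci. The region contained 74.2% of the 89 unique miRNAs of chromosome 21. All 34 known hairpins were found by name on chromosome 21 of the RefSeq annotation of the assembly ARS-UCD2.0, in the same order as here. In that annotation DLK1 and MEG3 came before mir-493, MEG9 and DIO3 came after mir-410, and the hairpins mir-433, mir-127, mir-432 and mir-136 lay within the span of RTL1.

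Each miRNA had a read count for its most abundant sequence and a second for all isomiRs, which are its variants in length and sequence. The most abundant sequences of all miRNAs held 5745936 reads in the lactation and 7879028 in the non-lactation library. RPM are reads scaled to the clean reads of each library, and a ratio is lactation over non-lactation. Beside each ratio stands its 95% interval (exact, by the Clopper-Pearson method given the sum of both counts). It covers counting error only and not variation between cows or libraries. Copies made by PCR are not independent molecules, so the interval may be too narrow even for counting error. A miRNA was called different when Fisher's exact test on its reads (two-sided, Bonferroni adjustment over 883 miRNAs) passed 0.05. The test compares these libraries and not the conditions. The smallest value listed above 0 was 3 reads, and a listed 0 was set to 3 reads to give a bound.

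The libraries also differed in miRNAs known as markers of cell types. All 5 miRNAs of the mir-200 family, an epithelial group, were called higher, with a summed 12201 RPM in lactation and 1903 RPM in non-lactation. Of 4 stromal miRNAs of the mir-199 and mir-214 hairpins 3 were called lower (2133 and 10072 RPM), and of 5 miRNAs of striated muscle 3 were called higher (4494 and 702 RPM). Of 6 blood cell miRNAs 1 was called higher and 2 lower (139 and 146 RPM), with mir-144-3p at 0 in non-lactation. Of 3 neural miRNAs 1 was called higher (128 and 82.0 RPM), mir-9-3p was at 0 in lactation, and mir-124b and mir-137 were not listed. Of miRNAs at other imprinted loci, mir-335, mir-483 and mir-296 were listed (7.69 and 23.5 RPM), and mir-296-3p alone was called, lower with 64 and 340 reads. The part of these differences in the values below was not tested. In whole tissue, fewer cells of a type and less RNA per cell cannot be told apart.

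The region was less represented in the lactation library. Its members summed to 10612 reads (887 RPM) in lactation and 28045 reads (1756 RPM) in non-lactation, which was 1.98-fold lower in lactation (interval 1.94 to 2.03). As a share of the listed reads, the region held 0.185% (0.181 to 0.188) in lactation and 0.356% (0.352 to 0.360) in non-lactation. With all isomiRs the sums were 21500 and 56615 reads, 1.97-fold lower in lactation (1.94 to 2.00). Most of this difference came from a pair of members. mir-127-3p and CN-354-3p held 62.8% of the region's reads in lactation and 79.5% in non-lactation. Without this pair the other 64 members summed to 3950 and 5755 reads, and the sum was 1.09-fold lower in lactation (1.05 to 1.14). With all isomiRs the sums without the pair were 8950 and 14484 reads, 1.21-fold lower in lactation (1.18 to 1.25). Under scalings by listed reads, TMM, DESeq2 or none, the ratio of the whole region stayed below 1, between 0.378 and 0.519.

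**Figure D1:**
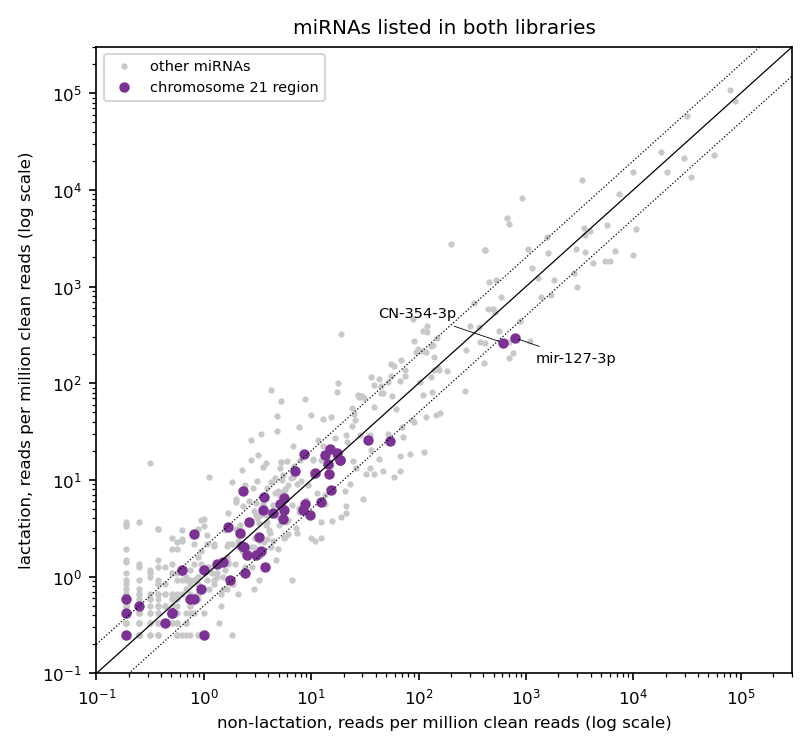
RPM in the lactation library (vertical, log scale) against the non-lactation library (horizontal, log scale) for 55 miRNAs of the chromosome 21 region (purple) and 488 other miRNAs (grey) listed in both libraries. The solid line marks equal RPM and the dotted lines a 2-fold difference. mir-127-3p (294 and 783 RPM) and CN-354-3p (262 and 613 RPM) stand apart from the other members and lie below the lower dotted line.

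The clusters differed in their sums, mainly through mir-127-3p of the first cluster. CN-354-3p lies in the second cluster and was itself lower in lactation. The first cluster summed to 3889 and 13136 reads, 2.53-fold lower in lactation (2.44 to 2.62), and the second to 6723 and 14909 reads, 1.66-fold lower (1.61 to 1.71). The first cluster therefore held 36.6% of the region's reads in lactation (35.7 to 37.6) and 46.8% in non-lactation (46.3 to 47.4), a comparison that does not depend on scaling (Fisher's exact test, p = 2.92e-73). Without mir-127-3p the first cluster had a ratio of 0.770 (0.676 to 0.878), above the 0.602 of the whole second cluster. With CN-354-3p left out as well, the first cluster had 366 of 3950 reads and 634 of 5755. The difference, lactation minus non-lactation, then went from -10.2 to -1.75 percentage points (p = 0.00532, Fisher's exact test). All-isomiR reads gave 45.6% and 57.3%, and without the pair 1021 of 8950 and 1674 of 14484 reads, a difference of -0.150 percentage points (p = 0.736, Fisher's exact test). With all isomiRs and without the pair the clusters had ratios of 0.814 (0.752 to 0.880) and 0.826 (0.803 to 0.850), so no difference between them was detectable.

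At least 100 summed reads over both libraries were reached by 27 of the 66 members and by 273 of all 883 miRNAs. The median member had 69.0 summed reads, against 17 for all miRNAs. At least 1000 summed reads were reached by 3 members, against 124 of all miRNAs. Of the 66 members 55 (83.3%) were listed in both libraries, as were 61.5% of all miRNAs. Members of 22 nt made up 51.5% of the region and 38.2% of all miRNAs. The 3p arm gave 43 members and the 5p arm 23. An A was the first base of 62.8% of the 3p members, against 40.3% of all 3p miRNAs, and none of the 43 began with C.

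Of the 66 members 7 were called lower and 4 were called higher in lactation. Over all 883 miRNAs, 10.9% were called lower and 17.4% higher, so the share called lower, 10.6% of the members, was near the background and the share called higher, 6.06%, was below it. Of the 27 members that reached 100 summed reads, 5 were 2-fold lower or more and 2 were 2-fold higher or more, where 22.7% and 28.9% of 273 such miRNAs were. The median log2 ratio of the 54 members with at least 10 summed reads was -0.21, and that of all 540 such miRNAs was 0.30. The middle 50% of the members spanned 1.05 on the log2 scale and that of all miRNAs 2.00. Under TMM scaling the median of all miRNAs moved by -0.26, and 3 members were then called higher, where 14.3% of all miRNAs were, and 10 lower, where 12.9% were. Unscaled reads moved it by -0.42 and gave 3 higher, where 12.2% were, and 13 lower, where 14.2% were. With all isomiRs the median of the members was 0.00 and that of all miRNAs 0.42.

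Other rules for a call were read against their own backgrounds. With Benjamini-Hochberg adjustment of Fisher's exact test 11 members were called higher, where 30.4% of all miRNAs were, and 15 lower, where 16.1% were. Of members with at least 100 summed reads 1 was 2-fold higher under TMM (21.6% of all such miRNAs), DESeq2 size factors (21.2%) and no scaling (18.3%), and 4 were with all isomiRs (28.3%). Without scaling 8 were 2-fold lower (30.4%). With a minimum of 10 summed reads 6 members were 2-fold higher (32.4%) and 8 lower (18.9%). At 4-fold and at least 100 summed reads 0 members were higher (10.6%) or lower (5.86%), and CN-355-3p, described with the mir-376 stretch, lay under that minimum with 87 reads. Of the shares in this paragraph, only those lower with Benjamini-Hochberg adjustment (15 of 66) exceeded the background. Shares called lower also lay above theirs under TMM (10 of 66, background 12.9%) and DESeq2 size factors (10 of 66, 13.1%). The same held without scaling (13 of 66, 14.2%) and with all isomiRs (15.4%, against 13.4%).

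mir-127-3p, the most abundant member, was among the 7 that were called lower. It had 3523 reads in lactation and 12502 in non-lactation (294 and 783 RPM), 2.66-fold lower in lactation (2.56 to 2.76), and ranked 56 and 38 among all miRNAs of the libraries. Its hairpin lies at chr21:65868433-65868527. The other arm, CN-346-5p, had 59 and 134 reads, with a ratio of 0.588 (0.425 to 0.804) that did not pass the adjustment. CN-346-5p was called lower under TMM (0.490), DESeq2 size factors (0.483) and no scaling (0.440), but not with the sum of listed reads (0.604). Next to them mir-136-5p at chr21:65870107-65870198 had 70 and 195 reads and was 2.09-fold lower (1.58 to 2.78). The 3p arm of that hairpin, CN-347-3p, had 54 and 70 reads, at a ratio of 1.03 (0.708 to 1.49).

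CN-354-3p was the second most abundant member and came from a hairpin that the tables list as a candidate only, at chr21:66014117-66014201 between mir-495 and the mir-376 stretch. It had 3139 reads in lactation and 9788 in non-lactation (262 and 613 RPM), 2.34-fold lower in lactation (2.24 to 2.43). Its ranks among all miRNAs were 62 and 44, close to those of mir-127-3p. The next most abundant member, mir-411-5p, had 302 and 867 reads and was 2.15-fold lower (1.88 to 2.46, Fisher's exact test, Bonferroni-adjusted p = 1.42e-30). mir-485-5p, a miRNA known from neurons, had 52 and 156 reads and was 2.25-fold lower (1.63 to 3.14). CN-366-5p had 95 and 243 reads and was 1.92-fold lower (1.51 to 2.46). The seventh, mir-376d-3p, had 15 and 59 reads and only just passed, at an adjusted p of 0.0469 (Fisher's exact test, Bonferroni). It is described with the mir-376 stretch, since its all-isomiR reads went the other way.

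mir-369-3p and mir-487a-3p were 2 of the 4 members called higher. mir-369-3p, near the end of the second cluster at chr21:66042411-66042479, had 222 reads in lactation and 138 in non-lactation (18.6 and 8.64 RPM), a ratio of 2.15 (1.73 to 2.67, adjusted p = 6.96e-10, Fisher's exact test). The 5p arm of the same hairpin had 24 and 38 reads, a ratio of 0.843 (0.484 to 1.44). mir-487a-3p at chr21:66028733-66028812 had 148 and 112 reads, a ratio of 1.76 (1.37 to 2.27). Its call was lost under TMM, where the ratio was 1.47, under DESeq2 size factors, where it was 1.45, and without scaling, where it was 1.32. The related mir-487b-3p had 173 and 229 reads at a ratio of 1.01 (0.823 to 1.23).

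**Figure D2:**
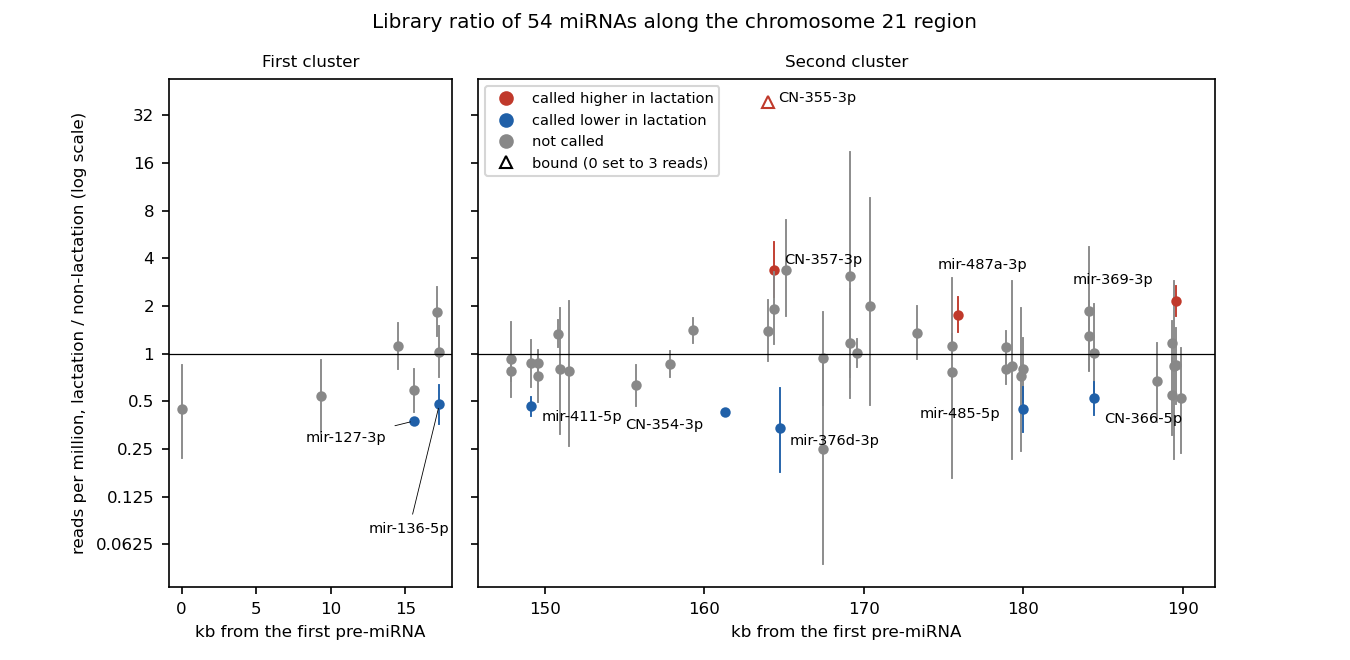
Ratio of RPM, lactation over non-lactation (log scale), against the distance of the pre-miRNA from the first pre-miRNA of the region (kb) for the 54 members with at least 10 summed reads. Bars are exact 95% intervals for counting error, colours give the calls, and the open triangle is a bound for CN-355-3p, listed at 0 in non-lactation. Members called higher and lower lie among each other along the second cluster, and the 2 called members of the first cluster are both lower.

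The remaining calls lay within the mir-376 stretch, where hairpins follow each other within about 1 kb. CN-355-3p had 87 reads in lactation and 0 in non-lactation (adjusted p = 8.16e-30, Fisher's exact test). With the 0 set to 3 reads its ratio was 38.7 (12.8 to 191). CN-355-3p was the member most clearly listed in 1 library. CN-356-3p, whose listed pre-miRNA overlaps that of CN-355-3p (chr21:66016802-66016903 and chr21:66016810-66016895), had 44 and 42 reads, a ratio of 1.40 (0.895 to 2.19). Summed over this locus, the reads were 131 and 42, a ratio of 4.16 (2.92 to 6.04). CN-357-3p had 93 and 37 reads, a ratio of 3.35 (2.27 to 5.05, adjusted p = 4.59e-08, Fisher's exact test), and the 5p arm of its hairpin, mir-376c-5p, had 39 and 27 reads at 1.93 (1.15 to 3.27).

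Downstream, mir-376d-3p was lower and mir-376b-3p had more reads in lactation. mir-376b-3p had 33 and 13 reads, a ratio of 3.39 (1.74 to 7.01) that did not pass the adjustment (p = 0.115, Fisher's exact test, Bonferroni). mir-376d-3p had a ratio of 0.339 (0.179 to 0.606) from its most abundant sequence, but with all isomiRs it had 173 and 102 reads and was called higher, at 2.26 (1.76 to 2.92). Its most abundant sequence was 8.67% of its isomiR reads in lactation (4.93 to 13.9) and 57.8% in non-lactation (47.7 to 67.6), the widest change among the 53 members that could be compared (adjusted p = 7.79e-16, Fisher's exact test, Bonferroni over 489 miRNAs).

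The sequences of the stretch are close to each other. Counted from 1 at the 5′ end of the first-named miRNA, CN-355-3p and mir-376d-3p differ by A2U, CN-355-3p and CN-356-3p by A6G, and CN-355-3p and CN-357-3p by A14U and A20G. mir-376d-3p and mir-376b-3p differ by C19U and A20G. How the authors divided reads among such neighbours is not given in the sources used here, so the split of reads among these 5 members is uncertain.

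The other 18 members with at least 100 summed reads were not called. For 11 of the 27 abundant members the interval of the ratio contained 1. mir-379-5p, the first hairpin of the second cluster, had 310 and 535 reads and a ratio of 0.773 (0.670 to 0.891). Its ratio fell to 0.578 (0.542 to 0.616) with all isomiRs, 1375 and 3176 reads, and was then called. It was also called under TMM (0.645), DESeq2 size factors (0.636) and no scaling (0.579), but not with the sum of listed reads (0.795). mir-494-3p had 67 and 141 reads, a ratio of 0.634 (0.467 to 0.854), and was called lower under TMM at 0.529. mir-543-3p had 191 and 297 reads (0.858, 0.712 to 1.03) and mir-495-3p 249 and 237 reads (1.40, 1.17 to 1.68). mir-432-5p, which lies antisense to RTL1 beside mir-127 and mir-136, had 80 and 58 reads at a ratio of 1.84 (1.30 to 2.63).

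Several members had ratios between 1.01 and 1.36. mir-380-3p had 218 and 217 reads (1.34, 1.11 to 1.63) and CN-360-5p 229 and 275 reads (1.11, 0.929 to 1.33). mir-433-3p had 68 and 81 reads (1.12, 0.800 to 1.57), mir-655-3p 58 and 57 reads (1.36, 0.926 to 1.99) and mir-409-5p 78 and 89 reads (1.17, 0.852 to 1.60). Under TMM the ratios of CN-360-5p, mir-433-3p and mir-409-5p were 0.927, 0.934 and 0.975, below 1, whereas those of mir-380-3p and mir-655-3p were 1.12 and 1.13. Over the 54 members with at least 10 reads, 23 ratios were above 1 with clean reads as totals and 15 under TMM.

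Along the region the ratio followed no gradient. Over the 54 members with at least 10 reads the rank correlation of log2 ratio with position was 0.13 (Spearman) and Pearson's r was 0.18, and within the second cluster they were -0.02 and -0.02 over 46 members. These are descriptions over members that share libraries and transcripts. From mir-379 to mir-495, 10 of 12 such members had a ratio below 1 and the 17 members summed to 0.792 (0.746 to 0.842). With all isomiRs mir-299-5p (1.01), CN-351-3p (1.42) and mir-323-3p (1.19) of this stretch moved above 1. From CN-354 to mir-376b the 8 members summed to 3450 and 9975 reads, a ratio of 0.462 (0.444 to 0.480) that CN-354-3p dominated, while 5 of the 7 with at least 10 reads had ratios above 1. From CN-358 to mir-410 the 32 members summed to 1585 and 2091 reads, a ratio of 1.01 (0.947 to 1.08), with 13 ratios above and 14 below 1.

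Both arms were listed for 19 hairpins of the region, and 18 of these had at least 10 reads. The leading arm held a median of 87.1% of the reads of these 18 hairpins, against 97.4% for 123 hairpins elsewhere. The sets were not matched for depth. A listed arm has at least 3 reads, so hairpins with few reads cannot reach the highest shares. In 4 of 15 hairpins where 1 arm was a known miRNA and the other was not, the arm absent from the known table had more reads (26.7%), against 5 of 93 hairpins elsewhere (5.38%). These were CN-350-3p over mir-299-5p with 78.5% of the reads, CN-357-3p over mir-376c-5p with 66.3%, CN-365-3p over mir-154-5p with 74.2% and CN-367-5p over mir-541-3p with 92.3%. CN-350-3p had 194 and 295 reads and mir-299-5p 47 and 87. CN-365-3p had 34 and 35 reads and mir-154-5p 14 and 10.

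**Figure D3:**
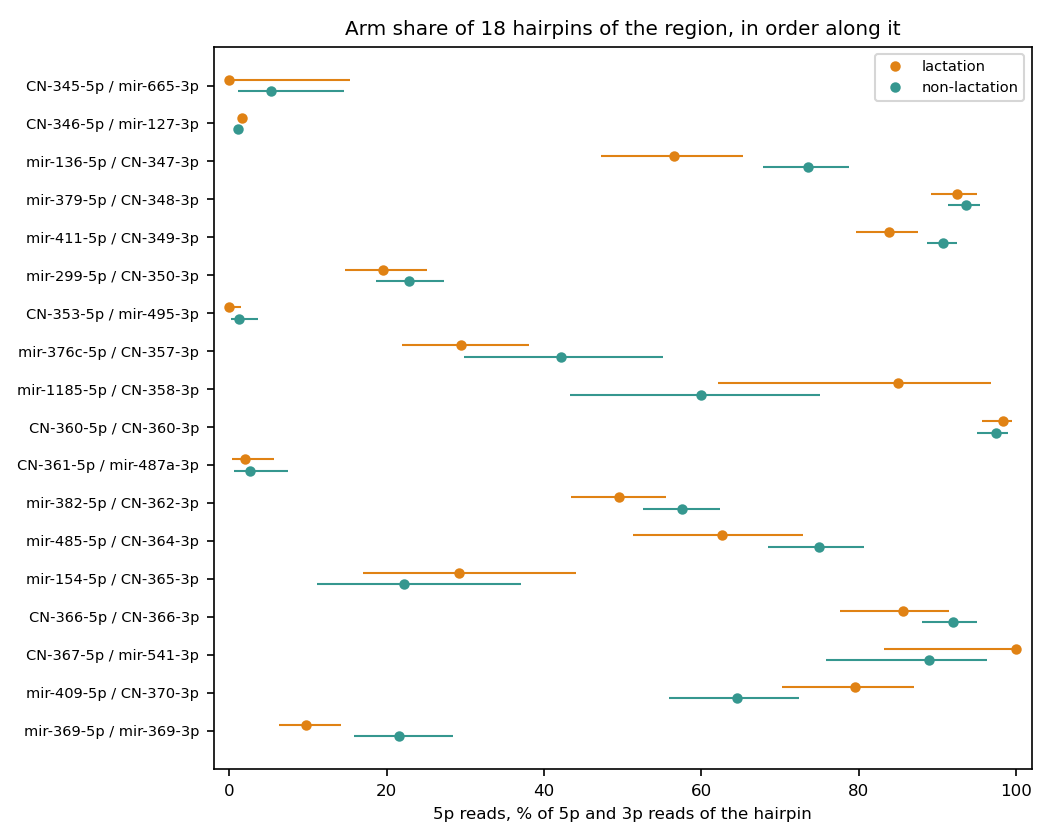
Share of 5p reads among the 5p and 3p reads (%) of 18 hairpins with at least 10 reads, in order along the region, in lactation (orange) and non-lactation (green). Points are shares of the most abundant sequences and bars exact 95% intervals for counting error. Hairpins range from nearly all 3p (mir-127, mir-495) to nearly all 5p (CN-360), with mir-382 and mir-136 between.

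No arm share of the region passed Fisher's exact test with Bonferroni adjustment over 141 hairpins, whereas 12.1% of the 141 did. Without adjustment 7 of the 18 were under 0.05, where 35.5% of the 141 were. Unadjusted p-values were lowest for mir-411 (7.89e-04), mir-136 (0.00103) and mir-369 (0.00120), all by Fisher's exact test. The 5p share of mir-136 was 56.5% in lactation (47.3 to 65.3) and 73.6% in non-lactation (67.8 to 78.8). For mir-369 it was 9.76% (6.35 to 14.2) and 21.6% (15.8 to 28.4). With all isomiRs 6 hairpins passed, mir-369 with 12.2% and 30.7% (adjusted p = 4.25e-06, Fisher's exact test) and mir-485 with 59.0% and 78.5% among them, where 26.6% of 143 hairpins passed. The other 4 were mir-127, mir-136, mir-411 and mir-409. With Benjamini-Hochberg adjustment of the most abundant sequences 4 passed, where 22.0% of 141 did.

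mir-382 used both arms almost alike, with 139 reads of 5p and 142 of 3p (CN-362-3p) in lactation and 233 and 172 in non-lactation. mir-409 had 78 and 20 reads of 5p and 3p (CN-370-3p) in lactation and 89 and 49 in non-lactation. In mir-379, mir-411 and mir-495 a single arm dominated, at 93.3% 5p, 88.8% 5p and 99.4% 3p over both libraries. CN-366 and CN-360, candidates with both arms listed, were at 90.1% and 97.9% 5p.

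Most abundant sequences and all isomiRs gave the same side of 1 for 50 of the 61 members with both ratios. Of the 11 others 5 had at least 100 isomiR reads, namely mir-376d-3p, CN-347-3p, mir-299-5p, CN-362-3p and CN-364-3p, and only mir-376d-3p was called either way. mir-299-5p moved from 0.721 to 1.01 (0.799 to 1.27), CN-362-3p from 1.10 to 0.890 (0.752 to 1.05), CN-364-3p from 0.796 to 1.17 (0.838 to 1.63) and CN-347-3p from 1.03 to 0.998. With all isomiRs 8 of 65 members were called higher, where 24.2% of 880 miRNAs were, and 10 lower, where 13.4% were. Of the 11 calls on most abundant sequences 9 were kept in the same direction. CN-355-3p had no isomiR value in non-lactation. Members called only with all isomiRs were mir-665-3p, CN-346-5p, mir-379-5p and CN-370-3p (lower) and mir-495-3p, mir-376c-5p, mir-376b-3p and CN-369-3p (higher).

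**Figure D4:**
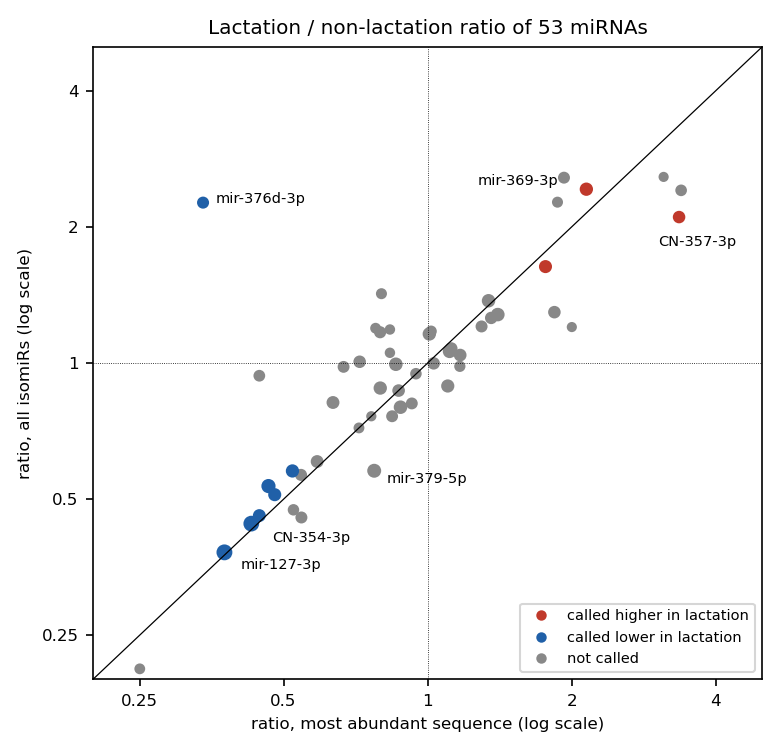
Ratio of RPM, lactation over non-lactation, from all isomiRs (vertical, log scale) against that from the most abundant sequence (horizontal, log scale) for 53 members with at least 10 summed reads and a value above 0 in both libraries. Colours give the call on most abundant sequences and larger points have more reads. mir-376d-3p (0.339 and 2.26) is far from the diagonal, while mir-127-3p and CN-354-3p lie near it.

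The most abundant sequence held a median of 50.4% of a member's isomiR reads in lactation and 51.4% in non-lactation. Of 53 members 3 changed by Fisher's exact test with Bonferroni adjustment, where 19.8% of 489 miRNAs did. With Benjamini-Hochberg adjustment 12 changed, where 33.5% did. Besides mir-376d-3p these were mir-379-5p, at 22.5% (20.4 to 24.8) and 16.8% (15.6 to 18.2), and CN-354-3p, at 83.5% (82.2 to 84.6) and 86.1% (85.4 to 86.7). The share of mir-127-3p was 40.1% (39.1 to 41.1) and 40.6% (40.1 to 41.2), with 8789 and 30760 isomiR reads in all. CN-354-3p had 3761 and 11371, so the 2 most abundant members lay further apart by all isomiRs than by the most abundant sequence.

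The 66 members carried 57 different seeds, and 17 members fell into 8 groups with a shared seed. CN-348-3p, CN-349-3p and CN-351-3p, the 3p arms beside mir-379, mir-411 and CN-352, shared AUGUAAC and summed to 92 and 140 reads, a ratio of 0.877 (0.667 to 1.15). CN-348-3p had 25 and 36 reads, CN-349-3p 58 and 89 and CN-351-3p 9 and 15. The seed of CN-351-3p is that of its listed sequence, whereas its hairpin has C at base 6 in place of A. CN-355-3p and CN-357-3p shared ACAUAGA, and both were called higher. mir-376d-3p and mir-376b-3p shared UCAUAGA, and the ratios of their most abundant sequences lay on opposite sides of 1. With all isomiRs both were called higher, at 2.26 and 2.41. mir-487a-3p and CN-365-3p shared AUCAUAC and summed to 182 and 147 reads, a ratio of 1.65 (1.32 to 2.07).

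The other seed groups had fewer reads. CN-364-3p (31 and 52 reads) and CN-366-3p (16 and 21) shared UCAUACA, which is the seed of mir-487a-3p moved by 1 base. mir-329b-3p (5 and 3 reads) and mir-329a-3p (0 and 4) shared ACACACC with mir-362-3p of another locus. CN-352-5p (0 and 5) and CN-371-5p (5 and 8) shared GGUCGAC, and CN-368-3p (0 and 4) and CN-369-3p (8 and 0) shared CGCACAG. mir-1197-3p and mir-134-5p each shared a seed with a candidate outside the region, so 4 members had a seed found elsewhere in the tables.

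Of the 31 members with a listed hairpin sequence 27 matched it exactly and 4 differed by 1 base (12.9%), against 43.9% of 569 miRNAs elsewhere. The differences, with the hairpin base first and positions from 1 at the 5′ end of the listed miRNA, were A5G in PC-300-3p, C6A in CN-351-3p, A6G in CN-356-3p and G22U in CN-345-5p. The first 3 lie within the seed, and the listed miRNA is shown above the same stretch of its hairpin, with the differing base in capitals.
PC-300-3p as listed: auauGcaagggcaagcucucu
PC-300-3p hairpin: auauAcaagggcaagcucucu
CN-351-3p as listed: uauguAacaugguccacuaau
CN-351-3p hairpin: uauguCacaugguccacuaau
CN-356-3p as listed: aacauGgaggaaaauccacauu
CN-356-3p hairpin: aacauAgaggaaaauccacauu

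At both A-to-G positions the tables also listed the miRNA with A. At the locus of CN-355-3p and CN-356-3p, the form with A had 87 and 0 reads and the form with G 44 and 42. PC-300-3p, whose pre-miRNA overlaps that of mir-381 (chr21:66021934-66022026 and chr21:66021942-66022016), had 14 and 16 reads, and mir-381-3p with the hairpin's base had 7 and 3. With all isomiRs the order changed in lactation, with 14 and 19 reads for PC-300-3p and 29 and 15 for mir-381-3p. Summed over the most abundant sequences, the mir-381 locus had 21 and 19 reads, a ratio of 1.48 (0.755 to 2.90). CN-351-3p with C6A had the seed of CN-348-3p, from which it differs by 1 base at its 3′ end. The source of the base differences was not tested.

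Members listed in 1 library were low apart from CN-355-3p. Of the 66 members 3 were listed in lactation only and 8 in non-lactation only, where 206 and 134 of all 883 miRNAs were. Apart from CN-355-3p they had at most 9 reads in the library that listed them. Some of them lay at pre-miRNA positions that overlap those of other members. CN-368-3p was listed in non-lactation only and CN-369-3p in lactation only, and they are 1 sequence cut at different 3′ ends at overlapping positions, with 8 and 4 reads in sum. CN-368-5p had 0 and 3 reads. CN-351-3p and CN-352-5p, at overlapping positions, are the 2 arms of a locus with 9 and 20 reads in sum. CN-353-5p (0 and 3 reads) and CN-361-5p (3 and 3) are the minor arms of mir-495 and mir-487a, and CN-360-3p (4 and 7) that of CN-360.

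The 15 members outside the groups above had between 3 and 76 summed reads, and none was called. Of these, 11 had reads above 0 in both libraries and ratios from 0.250 to 2.00, with 2 above 1 and 9 below. Another 3 were listed in 1 library only, mir-1197-3p in lactation (6 and 0 reads) and mir-654-3p (0 and 9) and mir-541-3p (0 and 5) in non-lactation. They include mir-493-3p, the first miRNA of the region, with 13 and 39 reads, mir-665-3p with 22 and 54, and mir-410-3p, the last miRNA of the region, with 11 and 28. mir-134-5p, a miRNA known from dendrites of neurons, had 5 and 8 reads, a ratio of 0.834 with a wide interval (0.215 to 2.89). In 4 members both libraries had 3 reads or fewer and no ratio was formed.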

How the data were processed

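The authors sequenced small RNA of the MG of 1 lactating and 1 non-lactating cow, removed low-quality reads, adaptors and other RNA classes, and aligned the clean reads to miRBase and to the genome BTA 4.0 with ACGT101-miR. The mismatch setting and the division of reads between similar sequences are not given in the sources used here. The labels name Trizol and the TruSeq kit, and the methods a Qiagen miRNeasy kit and an Illumina small RNA kit. The deposited values are read counts per library, which the authors counted for the most abundant sequence and for all isomiRs of each miRNA. For most CN miRNAs the isomiR columns headed reads and kinds were taken as exchanged, because isomiR sums as headed would fall under the main reads.

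Members were selected by position. RPM, ratios and Fisher's exact tests were computed over all 883 unique miRNAs with both values and Bonferroni-adjusted over all features of each comparison. Clean reads of the study were the library totals. With 1 library per condition no dispersion can be estimated, so edgeR 4.0.16 and DESeq2 1.42.0 (R 4.3.3) gave scaling factors only. Python 3.11.15 with scipy 1.17.1 and pandas 2.3.3 was used. The tests were tried on simulated reads with counting error only, so variation between cows or libraries was not covered. Depth sets the precision through the summed reads, as the printed intervals show.

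Members named with values have at least 100 summed reads, a ratio that changes side with all isomiRs, a second arm, an overlapping position, a shared seed or reads in 1 library only. The first and last members, mir-665-3p and mir-134-5p were picked with their values in view. The members, lists and tests were chosen with earlier results of these data known. Alternatives were other scalings, all isomiR reads, other adjustments, minimums and folds, sums per locus, other cluster gaps and leaving out the 2 most abundant members. RefSeq was used for names, gene order and overlap within its own assembly, and no RefSeq coordinate is printed, because that assembly differs from BTA 4.0.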

Additional observations from a re-analysis of the deposited data

How the results depend on the processing

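No paired analysis was possible because each condition has 1 library. For the same reason no library could be left out, and neither outliers nor interactions could be tested. The ratio of the region, of the first cluster and of the second cluster was 0.505, 0.395 and 0.602. It was 0.421, 0.329 and 0.502 under TMM, 0.415, 0.325 and 0.495 under DESeq2 size factors, 0.378, 0.296 and 0.451 without scaling, and 0.916, 0.770 and 0.934 without mir-127-3p and CN-354-3p. With the sum of listed reads the ratio of the region was 0.519, and with all isomiRs that of the second cluster was 0.645. The median log2 ratio of the members was -0.21 and became 0.00, just above 0, with all isomiRs. Calls were 4 higher and 7 lower (17.4% and 10.9% of all miRNAs). They became 8 higher with all isomiRs (24.2%) and 13 lower without scaling (14.2%). Benjamini-Hochberg adjustment gave 11 higher and 15 lower, where 30.4% and 16.1% of all miRNAs were called. Members at least 2-fold higher numbered 1 under TMM (21.6% of all such miRNAs), DESeq2 size factors (21.2%) and no scaling (18.3%). They numbered 4 with all isomiRs (28.3%) and 6 with a minimum of 10 reads (32.4%). Those at least 2-fold lower numbered 8 without scaling (30.4%) and 8 with a minimum of 10 reads (18.9%). Among members with at least 100 summed reads 0 were 4-fold different in either direction, where 10.6% of all such miRNAs were higher and 5.86% lower. With all isomiRs and without mir-127-3p and CN-354-3p, an alternative chosen after seeing the data, the difference in the share of the first cluster was -0.150 percentage points. Arm shares called by Fisher's exact test numbered 0 (12.1% of all hairpins). They became 6 with all isomiRs (26.6%) and 4 with Benjamini-Hochberg adjustment (22.0%). Main-sequence shares called rose from 3 (19.8% of all miRNAs) to 12 with Benjamini-Hochberg adjustment (33.5%). mir-376d-3p reversed with all isomiRs (2.26) and was not called with the sum of listed reads (0.349). mir-487a-3p was not called under TMM, DESeq2 size factors or no scaling. For these changes the cause was not tested. Depth limits the lower members. mir-376b-3p, with 46 summed reads, did not pass at a ratio of 3.39.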
